A study of Mus musculus with 6 samples.

Results

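Genes of the cornified envelope and the epidermal differentiation complex were examined for p53 ChIP-seq summits in basal progenitors, the dividing inner cells of mouse epidermis. The members were all protein-coding RefSeq genes with symbols starting Sprr, Lce or S100a plus a digit, together with 14 named genes: Flg, Flg2, Lor, Ivl, Rptn, Hrnr, Tchh, Crnn, Krtdap, Sbsn, Tgm1, Tgm3, Cnfn and Calm4. The rule uses names only and found 64 of 21887 protein-coding genes. There were 15 S100a, 14 Sprr and 21 Lce genes. Of the 64, 58 lie in the complex on chromosome 3, and Tgm3, Cnfn, Sbsn, Krtdap, Calm4 and Tgm1 lie on other chromosomes.

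The study profiled p53 in mice carrying wild-type p53 (WT) or the p53 allele named 3KR, with 3 libraries of each genotype. From general knowledge of this allele, 3KR carries arginine in place of lysines of the DNA-binding domain that are normally acetylated, while the labels give only its name. Mice of both genotypes were 8 weeks old, their basal cells were sorted as high for alpha-6 integrin and positive for EpCAM, and the digestion medium of both contained 25 µM Nutlin-3a, which keeps MDM2 from degrading p53. One combined list of summits per genotype was analysed, with 1668 summits in WT and 6753 in 3KR, so the spread between animals is not known and no comparison below has a test. Summit names carry a run label that ends in the number 1 in WT and contains the word Doxo in 3KR, which is not explained in the labels, and the depth behind each list is unknown. Whether each list rests on all 3 libraries is also not known. A difference between the lists can therefore not be told apart from a difference in depth, in the libraries used or in what the Doxo label stands for. The files hold no expression, so the labelled cell type could not be checked against its markers.

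The cornified envelope is the protein shell that replaces the plasma membrane of keratinocytes when they become the dead outer cells of the skin. Transglutaminases cross-link precursors such as loricrin, involucrin and the small proline-rich and late cornified envelope proteins into it, and filaggrin packs the keratin filaments beneath. Most of these genes sit side by side in the epidermal differentiation complex, are little expressed in basal cells, and are switched on as cells leave the basal layer, with AP-1 among the transcription factors known to act on their promoters. S100 proteins are small calcium-binding proteins, and the S100a genes lie at both ends of the complex.

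Promoter sequences are shown first because the windows at annotated starts differ within the Sprr2 family and mark the genes to which the summits are then related. Each run is the 250 bases before an annotated gene start, from RefSeq on GRCm38.p6, 5′ to 3′ on the strand of the gene. Capitals mark exact matches to the p53 half-site consensus, the decamer of which a p53 tetramer usually binds a pair, or to TGANTCA. The latter is a loose pattern for the AP-1 motif, in which N is any base. Both motifs read the same on either strand, and both strands were searched. Sprr2a1 (chr3:92215585-92215834, plus strand) is the only envelope precursor among the members with a summit of both lists in reach, and its capitals mark the p53 decamers. Sprr2b (chr3:92316455-92316704, plus strand) is a paralog without a summit in reach, and Ivl (chr3:92573736-92573985, minus strand) and Krtdap (chr7:30787655-30787904, plus strand) are members with a 3KR summit. Lor (chr3:92083143-92083392, minus strand) encodes loricrin, the main envelope protein. In these 4 windows capitals mark TGANTCA. Flg2 (chr3:93197023-93197272, plus strand) holds both, first a p53 decamer and then TGANTCA.
Sprr2a1: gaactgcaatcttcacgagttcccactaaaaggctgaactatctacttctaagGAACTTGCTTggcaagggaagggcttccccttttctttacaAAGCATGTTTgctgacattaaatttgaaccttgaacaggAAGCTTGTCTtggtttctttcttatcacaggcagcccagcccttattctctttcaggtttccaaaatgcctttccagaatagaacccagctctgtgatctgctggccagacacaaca
Sprr2b: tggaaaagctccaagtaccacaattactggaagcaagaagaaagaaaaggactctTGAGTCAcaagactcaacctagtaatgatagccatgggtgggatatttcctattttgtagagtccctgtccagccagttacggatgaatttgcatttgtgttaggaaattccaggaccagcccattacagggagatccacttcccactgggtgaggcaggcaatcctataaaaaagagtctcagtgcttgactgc
Ivl: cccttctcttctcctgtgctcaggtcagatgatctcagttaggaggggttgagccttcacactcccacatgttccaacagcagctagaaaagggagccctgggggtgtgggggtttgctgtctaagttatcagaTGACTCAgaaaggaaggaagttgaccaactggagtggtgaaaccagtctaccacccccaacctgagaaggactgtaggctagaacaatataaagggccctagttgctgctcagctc
Krtdap: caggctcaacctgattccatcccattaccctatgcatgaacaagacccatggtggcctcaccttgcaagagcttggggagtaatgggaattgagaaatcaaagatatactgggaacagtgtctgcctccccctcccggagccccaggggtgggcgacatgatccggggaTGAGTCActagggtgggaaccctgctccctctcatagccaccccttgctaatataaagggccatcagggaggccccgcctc
Lor: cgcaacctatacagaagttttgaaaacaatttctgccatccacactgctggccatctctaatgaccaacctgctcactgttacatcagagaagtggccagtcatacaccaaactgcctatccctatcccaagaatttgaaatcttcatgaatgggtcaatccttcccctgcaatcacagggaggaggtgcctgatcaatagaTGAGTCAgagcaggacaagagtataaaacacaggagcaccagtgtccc
Flg2: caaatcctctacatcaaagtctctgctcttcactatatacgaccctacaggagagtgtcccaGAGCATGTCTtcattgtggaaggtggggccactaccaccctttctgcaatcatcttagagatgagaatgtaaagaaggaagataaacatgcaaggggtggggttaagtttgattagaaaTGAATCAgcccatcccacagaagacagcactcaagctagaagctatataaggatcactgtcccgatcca

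Few members had a summit of either list in reach, that is, inside the gene or within 10 kb of either end. In WT they were 3 of 64, S100a2, S100a3 and Sprr2a1 (4.69%, 95% Wilson interval 1.61 to 12.9, counting error only), against 5.04% of all protein-coding genes. In 3KR they were 8 of 64, the same 3 genes and S100a1, S100a10, S100a13, Ivl and Krtdap (12.5%, 6.47 to 22.8), against 23.4% of all protein-coding genes. The other 56 members had none. The WT share of the members was near that of all genes, and the 3KR share was below it.

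Gene length moves with these shares. The members had a median length of 1.96 kb, against 17.2 kb for all protein-coding genes. A long gene offers more sequence in which a summit can fall, but the part of length in these shares was not tested. Within 1 kb of either gene end, 0.576% of genes under 5 kb had a WT and 6.58% a 3KR summit, against 1.05% and 10.6% of all genes. Among the 5034 protein-coding genes under 5 kb, a background chosen after seeing the data, 2.11% had a WT summit and 12.8% a 3KR summit. Of the members, 44 are under 5 kb. In WT 1 of these 44, S100a2, had a summit (2.27%, 0.402 to 11.8), and in 3KR 4 had one, S100a1, S100a2, Ivl and Krtdap (9.09%, 3.59 to 21.2). Both intervals include the share of all short genes. Per length, the merged stretches of the members and their 10 kb surroundings (1.35 Mb) held 1.48 WT and 5.91 3KR summits per Mb, against 0.788 and 3.75 per Mb around all protein-coding genes. Around the members under 5 kb there were 1.33 and 5.31 per Mb, against 1.09 and 6.56 around all genes under 5 kb, so the 3KR density was above that of all genes and below that of short genes. The densities of all members rest on 2 distinct WT summits and 8 distinct 3KR summits, because neighbouring genes share summits.

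**Figure D1:**
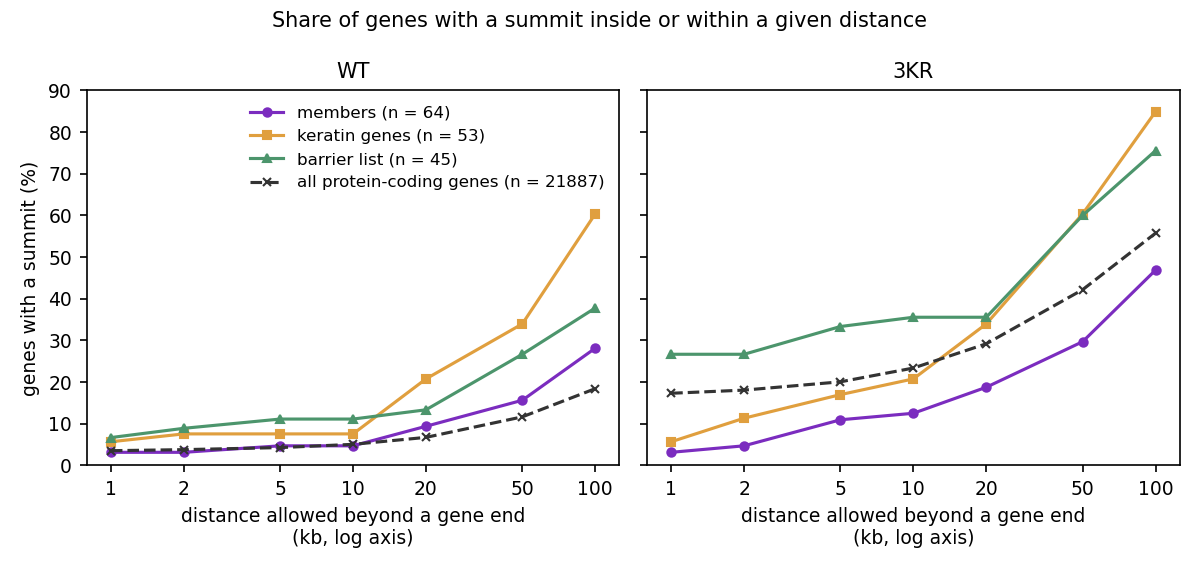
Percentage of genes with a WT (left) or 3KR (right) summit inside them or within the distance on the horizontal log axis (kb), for the 64 members, 53 keratin genes, 45 barrier genes and all 21887 protein-coding genes. In WT the members lie close to all genes at 10 kb (4.69% and 5.04%). They lie below all genes at 1, 2 and 10 kb in WT and above them at 5, 20, 50 and 100 kb. At 100 kb the WT shares are 28.1% and 18.4%. In 3KR the members lie below all genes at every distance drawn, with 12.5% against 23.4% at 10 kb.

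S100a10 had the highest scored summit of any member, in the 3KR list. It encodes the p11 subunit that pairs with annexin A2. Its gene (chromosome 3, 93555117 to 93564645) had 3 summits in the 3KR list. The highest, at 93554927, lay 190 bp outside one end of the gene with a score of 30.4, rank 541 of 6753. A score is the −log10 p or q value from the authors' peak calling and is used only within a list. A summit at 93556848 lay 1.73 kb inside the gene with a score of 17.7 (rank 1454), and one at 93569034 lay 4.39 kb outside the other end with 9.22 (rank 3938). No WT summit was in reach of S100a10. The nearest, at 93581057, lay 16.4 kb away with a score of 10.8 (rank 671 of 1668), and it coincided within 16 bp with a further 3KR summit at 93581073 (score 12.8, rank 2330).

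At the opposite edge of the complex, S100a2 and S100a3 were the only S100a genes with a summit in both lists. S100a3 (chromosome 3, 90560356 to 90602706) encloses S100a2 (90590247 to 90591508) in this annotation, so each summit counts for both genes. The WT summit at 90590407 lay inside both, 160 bp from an end of S100a2. Its score of 2.88 ranked 1663 of 1668, among the lowest of the WT list. The 3KR summit at 90587757 lay inside S100a3 and 2.49 kb outside S100a2 with a score of 7.48 (rank 4648 of 6753). The 2 summits were 2.65 kb apart, so they do not mark the same site. They lie on either side of an annotated S100a3 start at 90588563.

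S100a1 and S100a13, which encode S100 proteins expressed in many tissues, shared a single 3KR summit at 90509520 with a score of 6.87 (rank 5006 of 6753). It lay 1.51 kb outside S100a1 (90511034 to 90514330) and 4.71 kb outside S100a13 (90514233 to 90524581). The same summit lay 7 bp from an end of Chtop, a chromatin target of arginine methylation that is no member, and Chtop is the gene nearest to it. When each summit was given only to its nearest gene, S100a1 and S100a13 lost it, and so did S100a2 (in 3KR) and Ivl, which left 4 of 64 members in 3KR. The other 10 S100a genes had no summit in reach. They include S100a8 and S100a9, the alarmin pair that rises in stressed and inflamed epidermis, whose nearest summits lay 78.7 and 102.2 kb away in WT and 81.3 and 104.9 kb away in 3KR.

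Sprr2a1 was the only envelope precursor among the 64 members with a summit in both lists. Small proline-rich proteins are cross-linked into the envelope, and Sprr2 genes are induced in barrier stress. The gene (chromosome 3, 92215835 to 92222491, plus strand) had a WT summit at 92212255, 3.58 kb before its start, with a score of 7.51 (rank 1098 of 1668). The 3KR summit lay at 92211604, 4.23 kb before the start, with a score of 13.5 (rank 2314 of 6753). With 651 bp between them they miss the 200 bp rule for a shared site and meet one of 1 kb. By the 200 bp rule, 0 of 64 members had a WT and a 3KR summit at the same site. Only the 3 members with both summits in reach (4.69%, against 3.92% of all protein-coding genes) could meet it. No same-site share of all genes stands beside this count, so it is a description.

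The other 13 Sprr genes had none in reach. The nearest WT summit was 38.4 kb from Sprr2a2 and 73.05 kb from Sprr2a3, and rose along the cluster to 288.0 kb at Sprr4, since all these distances run to the same summit before Sprr2a1. A stronger site in both lists lay 45.8 kb before Sprr2a1, at 92170049 in WT (score 24.2, rank 195 of 1668) and 92170071 in 3KR (score 25.5, rank 751 of 6753). It is between Lor and Sprr2a1, 86.9 kb from Lor.

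The promoter window of Sprr2a1 held 3 matches to the p53 decamer, beginning 197, 156 and 117 bases before the annotated start. The windows of Sprr2a2 and Sprr2a3 held the same 3. Over the whole table, 10 of 32851 windows of 300 bases (0.0304%) held 3 or more, and these 3 are among them. They count as 1 sequence: the windows of Sprr2a1 and Sprr2a2 are identical over 300 of 300 bases, and that of Sprr2a3 is identical over the 272 bases it shares with them. No 2 of the matches lay within 13 bases of each other, the spacing allowed in a full p53 site, and no summit of either list fell inside the windows. Reads from identical copies cannot be placed uniquely, how such reads were treated is not given in the sources used here, and the part of this in the absence of summits was not tested.

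The 7 other Sprr2 windows differed from those 3. The Sprr2a copies matched each of them at no more than 33.3% of bases in the best alignment without gaps. Each of Sprr2b, Sprr2d, Sprr2e, Sprr2f, Sprr2h, Sprr2i and Sprr2k held TGANTCA, beginning 182 to 198 bases before the start, and none held the p53 decamer. The annotated Sprr2a genes are also longer, at 3961 to 6658 bp against 1256 to 1734 bp for the other Sprr2 genes. The letters TATAAA began 29 bases before the start in each of the 7 other windows and were in no Sprr2a window. Whether the windows are corresponding stretches of these genes was not tested, so they do not show that the promoters differ.

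Outside the S100a and Sprr families, Ivl and Krtdap had a 3KR summit and no WT summit in reach. Ivl encodes involucrin, an early scaffold of the envelope (chromosome 3, 92570899 to 92573790, minus strand). Its 3KR summit at 92579701 lay 5.97 kb before the annotated start with a score of 4.58, rank 6271 of 6753, and was nearer to Smcp, a gene of the sperm mitochondrial capsule, at 4.17 kb. Krtdap encodes a secreted protein of the suprabasal layers (chromosome 7, 30787905 to 30791089, plus strand). Its 3KR summit at 30795186 lay 4.10 kb beyond the end of the gene, 7.28 kb after its start, with a score of 21.4 (rank 1008 of 6753). Among the 8 distinct 3KR summits of the members only the highest of S100a10 scored above it. The nearest WT summit to Krtdap was 1020 kb away, and that to Ivl 358.6 kb away.

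Lor, Sbsn, Cnfn, Calm4, Tgm1 and Tgm3 had no summit in reach. Tgm1 encodes the transglutaminase that anchors the envelope to the membrane, and Tgm3 a transglutaminase that acts in late differentiation and in hair. Tgm1 was the member just outside the limit, with a 3KR summit 10.7 kb away (rank 3966 of 6753), while Ivl at 5.91 kb was the farthest member inside it. S100a4 and S100a5 came next, 13.4 and 16.1 kb from the WT summit at 90590407. Calm4, which encodes a calmodulin-like protein of differentiating keratinocytes, lay 23.9 kb from a WT summit and 23.8 kb from a 3KR summit, at 3862564 and 3862502 on chromosome 13.

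**Figure D2:**
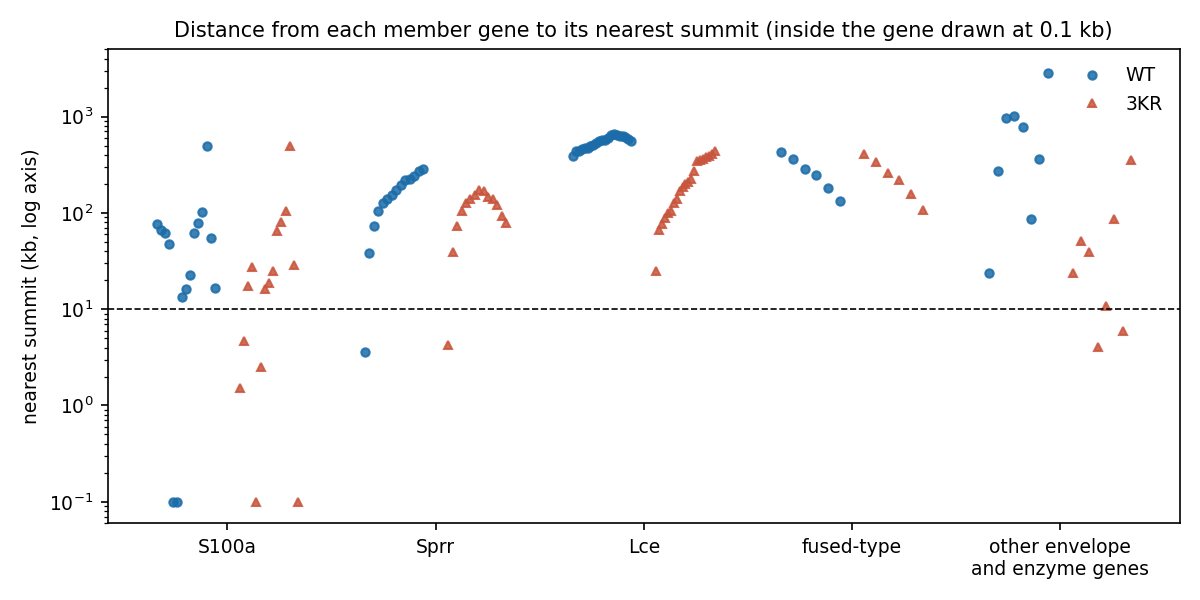
Distance from each of the 64 members to its nearest WT (circles) and 3KR (triangles) summit, in kb on a log axis, by family and in gene order within a family. The dashed line marks 10 kb; the only points below it are 3 WT and 8 3KR points, and none of them is an Lce or fused-type gene.

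The middle of the complex, from the Lce genes to the fused-type genes, held no summit of either list. All 21 Lce genes, whose products are late precursors of the envelope, had 0 summits in reach (upper Wilson bound 15.5%). Beside this stand 5.04% (WT) and 23.4% (3KR) of all protein-coding genes. Among those under 5 kb the shares were 2.11% and 12.8%, and the Lce genes had a median length of 1.66 kb. The Lce genes are neighbours, while the bound treats them as independent. Their nearest WT summit lay 392.6 to 654.8 kb away and their nearest 3KR summit 25.1 to 438.1 kb away, with Lce6a the nearest in both. The 6 fused-type genes Flg, Flg2, Hrnr, Rptn, Tchh and Crnn also had 0 (upper Wilson bound 39.0%). They join an S100 domain to long repeats, and filaggrin, from Flg, is the best known of their products. The nearest member of these 6 was Tchh, 132.0 kb from a WT and 105.9 kb from a 3KR summit, and Flg itself lay 287.4 and 261.2 kb away.

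The 3KR summits beside Ivl and S100a10 bound an interval of 0.975 Mb without a 3KR summit, which holds 28 members from Lce6a to S100a11 among 34 protein-coding genes. Of 6664 intervals between neighbouring 3KR summits, 90.8% were shorter and 40 held more protein-coding genes. In WT the corresponding interval ran from the Sprr2a1 summit to the site beyond S100a10. It spanned 1.37 Mb and held 44 members among 50 protein-coding genes. Of the 1615 WT intervals, 70.8% were shorter and 89 held more protein-coding genes. Each interval is a description, picked because it holds the most members.

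**Figure D3:**
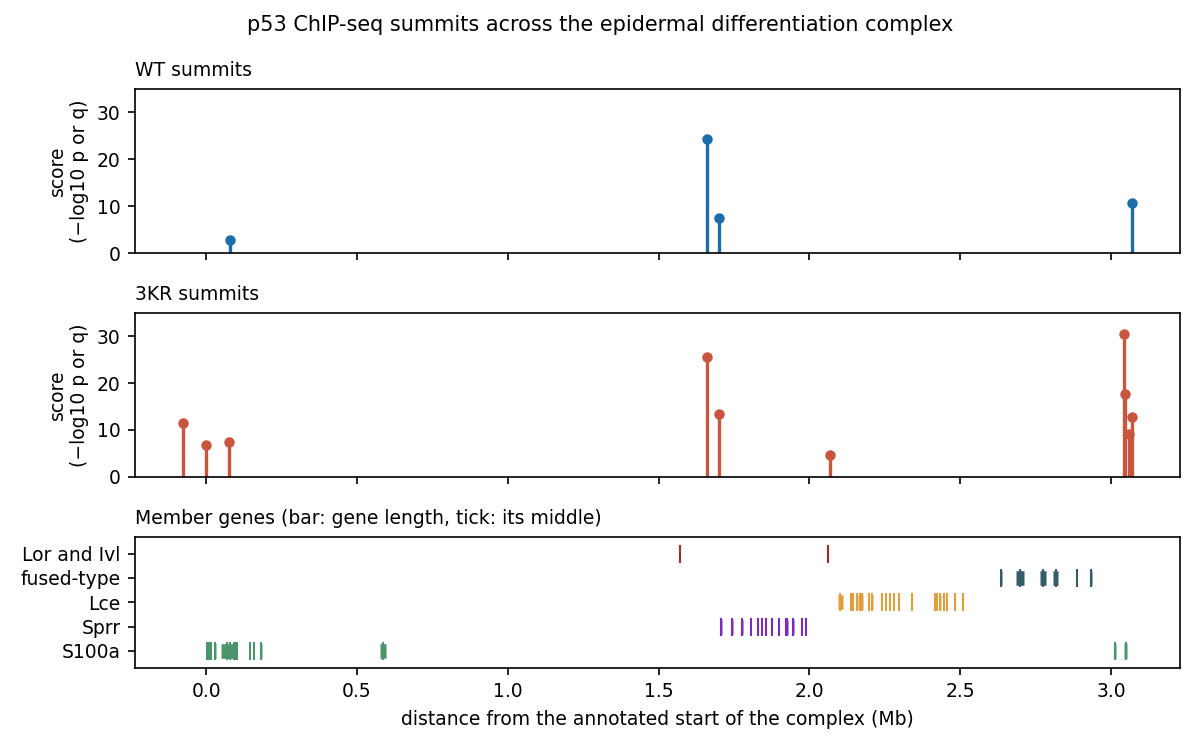
Summits of WT (top) and 3KR (middle) with their scores (−log10 p or q, compared only within a list) and the 58 members on chromosome 3 by family (bottom), against distance in Mb from the annotated start of the complex. Summits stand near the S100a genes at both ends, before the Sprr genes and beside Ivl, and none lies over the Lce or fused-type genes.

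As a stretch of chromosome the complex spans 3.05 Mb, from the start of S100a1 (90511034) to the end of S100a10 (93564645), with 70 protein-coding genes, 58 of them members. It held 3 WT and 6 3KR summits. The 3KR summits at 90509520 and 93569034, in reach of members but outside these ends, count in the neighbouring stretches. The stretch of the same length before it held 4 and 17, with 109 gene starts, and the one after it held 4 and 17, with 90 gene starts. Per length the complex had 0.982 WT and 1.96 3KR summits per Mb, against 0.524 and 2.10 over chromosome 3 as a whole. The 3KR density of the complex thus lay near the chromosome's mean and below both neighbours, while its WT count was close to that of the neighbours.

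**Figure D4:**
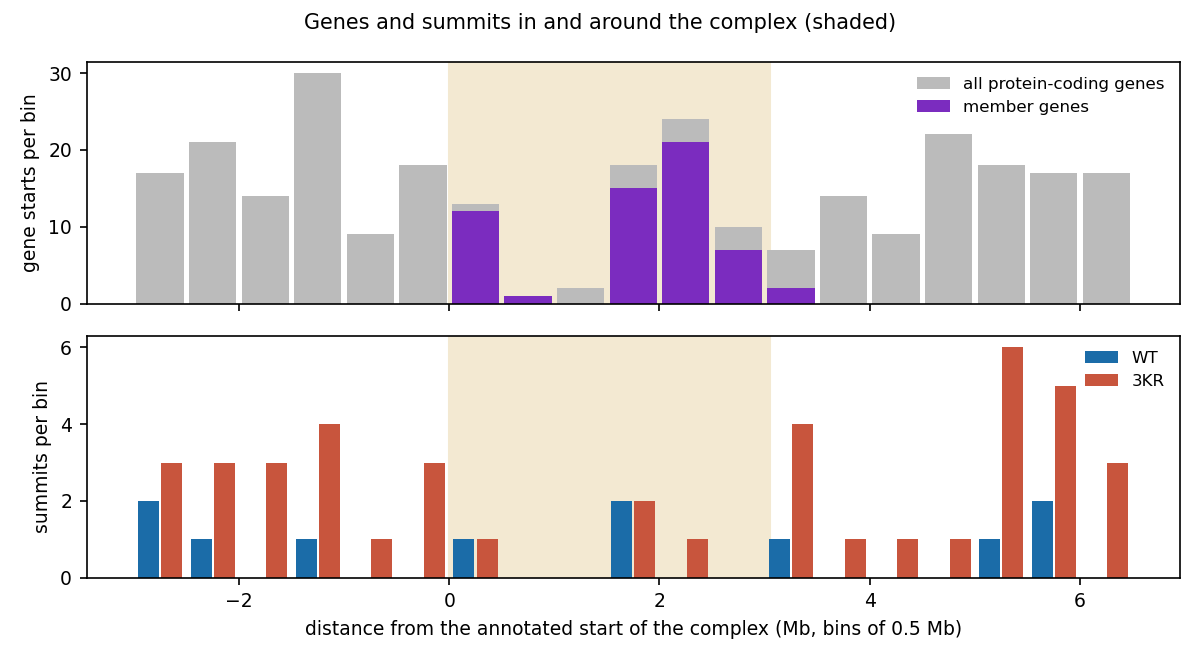
Protein-coding gene starts (top) and summits (bottom) in bins of 0.5 Mb, by distance in Mb from the annotated start of the complex, which is shaded. In 3KR the complex held 6 summits, against 17 in each neighbouring stretch of the same length, and in WT 3 against 4 and 4. Each neighbouring stretch includes a 3KR summit in reach of a member at the edge of the complex.

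A summit within 1 kb of either outer end of the annotated gene was found at 1 member of 64 in WT, S100a2 (1.56%), against 1.05% of all protein-coding genes. In 3KR it was found at 1 member, S100a10 (1.56%), against 10.6% of all protein-coding genes. Starts inside a gene are not counted here, and the 3KR summit in S100a3 lay 805 bp from such a start, at 90586952. No summit of either list fell inside any of the 65 promoter windows, which cover 250 bases before to 50 after annotated starts of 60 members. Over all 32851 windows, 0.460% held a WT and 5.21% a 3KR summit. S100a2, S100a10, S100a14 and Lce1f have no window. The absence of summits in the member windows thus leaves out S100a2 and S100a10, the members with a summit within 1 kb of an outer end.

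Most promoter windows of Sprr and fused-type genes held TGANTCA, and none of the Lce windows did. TGANTCA occurred in 20 of 65 windows (30.8%), against 7.81% of all windows. Paralogs share sequence, so these windows are not independent of each other. The motif was in 9 of 14 Sprr windows, 4 of 6 fused-type windows, 3 of 16 S100a windows and 0 of 20 Lce windows, and in those of Ivl, Lor, Krtdap and Sbsn. Sprr1a, Sprr2k, S100a11 and Sbsn held it at 2 positions. Any middle base counted: the fused-type matches were TGAATCA (Crnn, Flg2 and Flg) and TGATTCA (Rptn), and Sprr1b and S100a16 held TGAATCA. In the other Sprr windows the matches were TGAGTCA or TGACTCA. The p53 decamer was in 9 of 65 windows (13.8%), against 8.36% of all, namely the 3 Sprr2a copies, Sprr4, S100a3, S100a9, Crnn, Flg2 and Hrnr. The S100a3 match, 104 bases before the start at 90588563, lies between the WT and 3KR summits described above. A pair of decamers at most 13 bases apart was in 0 of 65 member windows and 24 of all windows. A match is a run of letters and does not show a site that is bound.

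**Figure D5:**
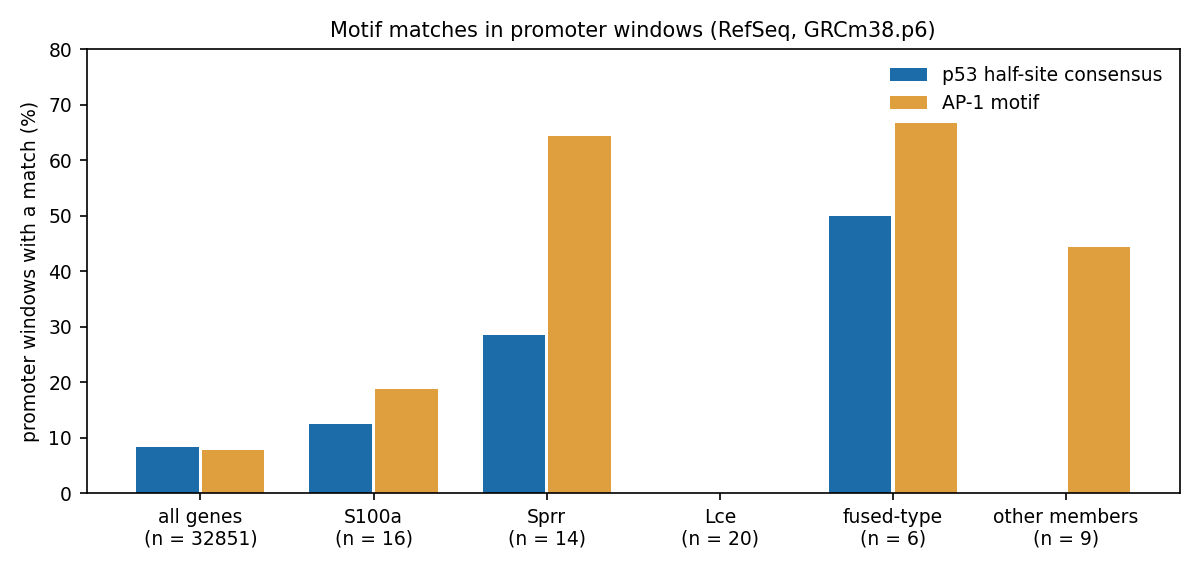
Percentage of promoter windows (300 bases each) with at least 1 exact match to the p53 half-site consensus (blue) or the AP-1 pattern TGANTCA with any middle base (orange), for all genes and for the members by family, with the number of windows under each pair of bars. TGANTCA is in 64.3% of Sprr and 66.7% of fused-type windows against 7.81% of all windows, and Lce windows hold neither motif.

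Other genes of cornification or of the complex, from a list of 45 genes that are no members by symbol, also had summits. These genes included barrier enzymes and membrane-side precursors of the envelope, among others. In WT 5 of 45 had one (11.1%, 4.84 to 23.5) and in 3KR 16 of 45 (35.6%, 23.2 to 50.2), beside the 5.04% and 23.4% of all genes. These genes were longer than the members, with a median of 14.9 kb. The WT genes included Aloxe3, Casp14, Evpl and Ppl. Aloxe3 serves the lipid barrier, Casp14 encodes a protease that processes filaggrin, and Evpl and Ppl encode envoplakin and periplakin, which start the envelope at the membrane. At Evpl, Casp14 and Aloxe3 the summits of the lists were 9, 15 and 5 bp apart, and at Ppl the WT summit had its nearest 3KR summit at 1788 bp. High ranked 3KR summits of the list were those of Aloxe3 (score 20.7), Ppl (19.8), Evpl (16.6) and Abhd5, a lipase activator gene (12.1). Within the complex, the 8 genes of this list that are no members had 0 WT summits and 1 3KR summit, that of Smcp described with Ivl.

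Keratin genes, another clustered epidermal family, had a WT summit at 4 of 53 (7.55%) and a 3KR summit at 11 of 53 (20.8%). They too were longer, with a median of 7.07 kb. The 3 suprabasal keratin genes of the barrier list are counted in both groups. When 50 kb were allowed, the share of the members in 3KR was 29.7%, against 60.4% of keratin genes, 60.0% of the barrier list and 42.2% of all protein-coding genes. In WT these shares were 15.6%, 34.0%, 26.7% and 11.6%. The differences between these groups have no test, since neighbouring genes share summits and there is 1 list per genotype.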

How the data were processed

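ChIP-seq for p53 was done in sorted basal epidermal cells, 3 libraries per genotype. Reads were processed with BWA and MACS2 on mm10, per the submitters' processing notes, without versions. The labels and headers used here do not state the control library, the threshold or how libraries were combined. The authors deposited 1 list of single-base summits per genotype with a score, read as −log10 of a p-value or q-value. No depth is known.

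Of the summits, 1636 WT and 6685 3KR lay on assembled chromosomes and were used. Ranks cover the whole list, and tied summits share the higher rank. Genes came from RefSeq (GRCm38.p6, the chromosomes of mm10), as did promoter windows, which matched 60 of 64 members. A gene had a summit if 1 lay inside it or within 10 kb of an end; summits at most 200 bp apart were the same site. Shares have 95% Wilson intervals. Assignment was checked with simulated summits planted just inside and just beyond 10 kb at members outside chromosome 3, so not in the complex. Members, lists and rules were chosen with earlier results of these data known. Named genes are members with a summit, the 3 nearest beyond 10 kb, barrier genes with a WT summit and the 5 with the highest ranked 3KR summits; others named (S100a8, S100a9, Lor, Flg, Calm4, Sprr and motif-bearing genes) were chosen after their values were seen. All 45 names of the barrier list matched; 1 of these genes is counted but not reported here by name. Alternatives varied distance, assignment, list length, score and the same-site rule. Python 3.11.15, pandas 2.3.3 and scipy 1.17.1 were used.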

Additional observations from a re-analysis of the deposited data

How the results depend on the processing

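No paired analysis was possible because each genotype has a single list, and leaving out a library was not possible for the same reason. The number of members with a WT summit (3) was 2 within 1 kb, 3 within 5 kb and by nearest gene, 10 within 50 kb and 0 among the upper 50% of scores. In 3KR (8) it was 2 within 1 kb (S100a3 and S100a10), 7 within 5 kb, 19 within 50 kb, 4 by nearest gene, 3 in the upper 50% (Sprr2a1, S100a10 and Krtdap) and 2 (S100a10 and Krtdap) when only as many top 3KR summits were kept as WT has. Among the 44 members under 5 kb, an alternative added after seeing the data, it was 1 in WT (2.27%) and 4 in 3KR (9.09%). The share of all protein-coding genes with a WT summit (5.04%) was 3.51%, 4.26% and 11.6% within 1, 5 and 50 kb, 4.03% by nearest gene, 2.56% in the top 50%, and 2.11% among genes under 5 kb, added likewise. In 3KR (23.4%) these shares were 17.3%, 20.1%, 42.2%, 17.3%, 13.4% and 12.8%, and 7.08% with the shortened list. The 3KR share of the members was below that of all genes under each of these settings, also with both restricted to genes under 5 kb. The WT share was below it within 1 kb (3.13%), within 10 kb and in the upper 50%, above it within 5 and 50 kb and by nearest gene, and 2.27% against 2.11% with both under 5 kb. Members with both summits at the same site numbered 0 at 0, 100, 200 and 500 bp and in the top 50%, and 1 (Sprr2a1) at 1 kb. No share of all genes stands beside these counts. Distinct summits of the members went from 2 to 1 within 1 kb and 5 within 50 kb in WT, and from 8 to 3 and 13 in 3KR. Unknown depth limits each count: a missing summit shows only that none was listed.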
